A study of Mus musculus with 6 samples.

Results

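The Hox cluster genes were read in 6 arrays of sorted mouse embryoid body cells, with and without introduced HOXB4. Features were taken when their annotation named a gene whose symbol is Hoxa, Hoxb, Hoxc or Hoxd plus a number; antisense and opposite-strand genes were left out. This gave 37 features for 38 Hox genes, of 32750 features that list a gene. Every one of the 38 genes looked for was found. There were 10 Hoxa, 10 Hoxb, 9 Hoxc and 8 Hoxd features. Hoxd3 and Hoxd4 share 1 feature. The Hoxb4 feature also lists the microRNA gene Mir10a, the Hoxa9 feature also lists Mir196b, and the Hoxa7 feature also lists the long non-coding RNA Mira.

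Hox genes encode homeodomain transcription factors that give cells their position along the head to tail axis. In mammals they lie in 4 clusters, and genes at the same place in different clusters form paralogue groups, numbered from the anterior end. Anterior members are usually switched on earlier in the embryo and nearer the head than posterior ones, an order called colinearity. Retinoic acid and the Cdx factors switch the clusters on, Polycomb proteins hold them silent and trithorax proteins such as the Kmt2a and menin complex keep them active. In blood formation Hoxb4 and the Hoxa genes of the middle and posterior groups are known for their roles in stem and progenitor cells.

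The cells were mouse embryonic stem cells of a line labelled iRunx, grown as embryoid bodies, which are aggregates in which the germ layers form. The line's name points to an inducible Runx gene, carried by both groups; the sources used here do not say whether it was induced. Cells with Flk1 and without PDGFRα on their surface were sorted from the dissociated bodies at day 4. The HOXB4 group expressed HOXB4 from a retrovirus together with the red fluorescent protein tdTomato, and the control group did not; whether controls carried an empty vector, and the species of the introduced HOXB4, are not given. Each group had 3 arrays from independent experiments, and the comparison asks how the Hox clusters differ in cells that express HOXB4.

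Values are log2 expression summaries. The 23 background features had medians of 3.06 to 3.15 and the features that list a gene medians of 5.10 to 5.22 in the 6 arrays. A further 5222 features named as negative controls had medians of 5.76 to 6.08; what they measure is not given. Of the 37 Hox features, 35 or 36 lay above the background median in each array, but only 1 to 3 lay above the median of the negative control features. A feature's level depends on its probes, so each feature is compared between arrays only. Kdr, which encodes Flk1, stood at 13.72, 14.12 and 13.83 in control arrays 1 to 3 and at 14.33, 13.68 and 13.82 in HOXB4 1 to 3. The feature listed for Pdgfra, which also lists Mir7025, was highest in HOXB4 2, at 7.15 against 6.47 to 6.89 in the controls. HOXB4 2 stood apart from HOXB4 1 and 3 for many genes, and values without it are given beside several of the members and lists it moves. In such bulk samples, fewer cells that express a gene and less RNA per cell cannot be told apart. Precision is limited by the number of arrays.

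The Hox clusters also hold microRNA genes, whose mature sequences are shown because 2 Hox features list such a gene and because their own features were measured. The sequences are from RefSeq, assembly GRCm38.p6, with the seed (bases 2 to 8) in capitals. Mir10a lies in the Hoxb cluster at chr11:96317186-96317208 on the plus strand and Mir10b in the Hoxd cluster at chr2:74726074-74726096 on the plus strand, and they share 1 seed. Mir196a-1 (chr11:96265187-96265208, plus strand) and Mir196a-2 (chr15:102973365-102973386, plus strand) give the same mature sequence. Mir196b (chr6:52230129-52230150, minus strand) in the Hoxa cluster shares their seed, and miR-196 is known to cleave the Hoxb8 transcript. Mir615 lies within Hoxc5, at chr15:103014969-103014990 on the plus strand.
mmu-miR-10a-5p: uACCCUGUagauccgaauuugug
mmu-miR-10b-5p: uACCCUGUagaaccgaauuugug
mmu-miR-196a-5p: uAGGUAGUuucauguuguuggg
mmu-miR-196b-5p: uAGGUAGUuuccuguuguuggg
mmu-miR-615-3p: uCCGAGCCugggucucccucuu

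The 250 bases before the start of 3 Hoxb genes are shown: Hoxb1, an anterior gene known to be switched on by Hox and Pbx proteins in the hindbrain; Hoxb4, the endogenous copy of the introduced gene; and Hoxb8, which was added because its window held the most matches to the letters searched. They come from RefSeq, assembly GRCm38.p6, plus strand, at chr11:96365508-96365757 for Hoxb1, chr11:96318017-96318266 for Hoxb4 and chr11:96281655-96281904 for Hoxb8. Capitals mark matches, on either strand, to 4 motifs: TGATTNAT (Hox with Pbx), TGACAG (Meis), TTTATNG (Cdx and posterior Hox) and TGATNNAT. The last was chosen after these sequences had been read, and it includes TGATTNAT.
Hoxb1: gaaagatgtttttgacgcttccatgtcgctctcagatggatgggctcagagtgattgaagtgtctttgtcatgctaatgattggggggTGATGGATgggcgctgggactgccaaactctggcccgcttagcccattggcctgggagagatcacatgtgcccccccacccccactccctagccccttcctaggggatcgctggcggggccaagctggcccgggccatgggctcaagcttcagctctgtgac
Hoxb4: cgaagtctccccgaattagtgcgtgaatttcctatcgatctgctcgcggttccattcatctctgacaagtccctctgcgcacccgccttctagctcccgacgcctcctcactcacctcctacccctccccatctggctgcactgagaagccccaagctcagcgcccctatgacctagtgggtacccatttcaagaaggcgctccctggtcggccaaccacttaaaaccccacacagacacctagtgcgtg
Hoxb8: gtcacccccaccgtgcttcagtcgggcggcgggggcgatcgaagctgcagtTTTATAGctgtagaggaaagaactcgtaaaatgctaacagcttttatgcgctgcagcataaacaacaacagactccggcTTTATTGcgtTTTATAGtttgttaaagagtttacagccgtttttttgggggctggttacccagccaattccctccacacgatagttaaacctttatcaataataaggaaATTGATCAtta

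The Hoxb1 window held 1 match to TGATNNAT, at positions -162 to -155 before its start. The Hoxb4 window held no match to these letters. The Hoxb8 window held 3 matches to TTTATNG and 1 match to TGATNNAT, which lay at -11 to -4 on the minus strand. Windows of 300 bases, 250 before to 50 after a start, were given for 22 of the Hox genes (24 windows). TGATTNAT was in those of Hoxa2 and Hoxd11, or 2 of 24, against 3.22% of all 32851 windows. TGACAG was in those of Hoxa2 and Hoxa3, against 19.2% of all windows, and TTTATNG in those of Hoxb8 and Hoxd4, against 10.9%. TGATNNAT was in 4 of 24 windows, against 8.85% of all. A match is a description of the letters only.

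No Hox feature passed limma's moderated test after Benjamini-Hochberg adjustment, and neither did any other feature: 0 of 32750 (0%) had an adjusted p below 0.05, with 0.604 the smallest. At an unadjusted p below 0.05, 1926 features (5.88%) were lower in HOXB4 cells and 764 (2.33%) higher. Across the clusters the Hox values nevertheless lay on one side. All 37 differences, HOXB4 minus control, were below 0, against 59.6% of all features that list a gene; with cyclic loess scaling 34 were below 0 (Hoxb4, Hoxc11 and Hoxd11 turned), and with arrays centred on their medians or with array weights 36 were (Hoxd11 turned). Their median was -0.20 on the log2 scale, and the median over all features that list a gene was -0.04. The Hox differences ran from -0.88 for Hoxb6 to -0.003 for Hoxd11.

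In 13 of the 37 Hox features (35.1%) all 3 HOXB4 values lay below all 3 control values, as they did in 10.2% of all features that list a gene. The reverse, all HOXB4 values above all control values, held for 0 Hox features and 3.36% of all. At an unadjusted p below 0.05, 9 Hox features (24.3%, against 5.88% of all) were lower and 0 higher (2.33% of all). The 9 became 15 without control 3, 5 without control 2 or HOXB4 1 and 4 without control 1 or HOXB4 3. In those smaller sets 870 to 2267 of all 32750 features were lower. The members share clusters, overlapping transcripts and arrays, and are not replicates of the condition. The smallest gap between the groups among the 13 was 0.01, for Hoxa3, and the widest was 0.29, for Hoxb2. Without control 3 the count without overlap was 26 and without HOXB4 2 it was 21, while 20.6% and 21.3% of all features met the same rule in those smaller sets.

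The mean over the 37 Hox features was 4.54, 4.61 and 4.33 in control arrays 1 to 3 and 4.20, 4.30 and 4.21 in HOXB4 1 to 3. The groups did not overlap, and control 3 lay nearest to the HOXB4 arrays. Control 3 was the lowest control for 33 of the 37 Hox features (89.2%), against 41.5% of all features that list a gene. Control 2 was the highest control for 21 Hox features (56.8%, against 30.3% of all) and control 1 for 15. Within the HOXB4 group, HOXB4 2 was highest for 20 Hox features (54.1%, against 39.5% of all). The median Hox difference was -0.26 without control 3 and -0.14 without control 2.

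**Figure D1:**
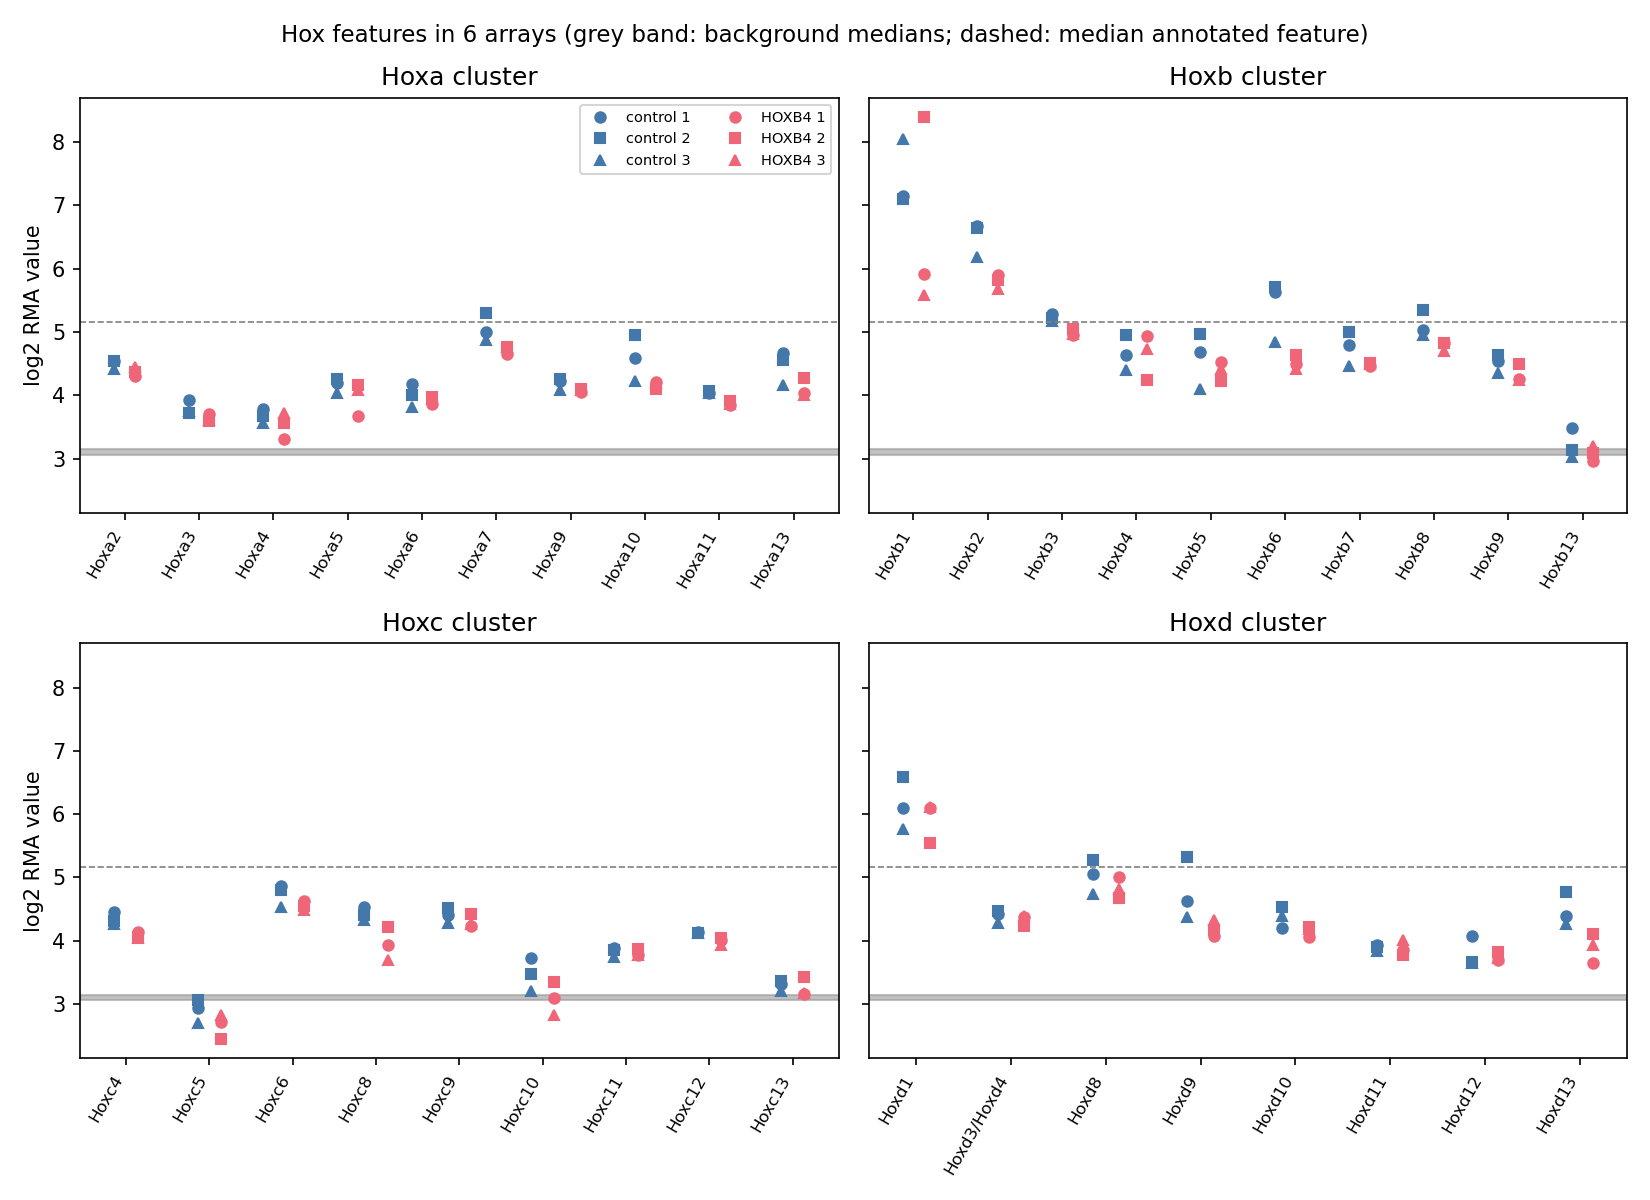
Log2 RMA value (vertical axis) of each of the 37 Hox features in the 3 control (blue) and 3 HOXB4 (red) arrays, 1 panel per cluster in order of paralogue group; the marker shape gives the replicate number, the grey band spans the background medians (3.06 to 3.15) and the dashed line is the median annotated feature (5.16). Control 3 (blue triangle) is the lowest control in 33 of the 37 features, and Hoxc5 lies below the band's upper edge in every array.

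The Hoxb cluster held the features furthest apart between the groups. The cluster's median level over the 6 arrays was also the highest, at 4.8 against 4.06 to 4.31 in the others. Its 10 features had a median difference of -0.25, with a range of -0.88 to -0.03, and 4 lay lower without overlap, against 10.2% of all features that list a gene. The median was -0.40 without control 3 and -0.19 without control 2. Their mean over the cluster was 5.19, 5.27 and 4.95 in control arrays 1 to 3 and 4.73, 4.93 and 4.65 in HOXB4 1 to 3. By this mean HOXB4 2 came closest to the controls, just below control 3, with Hoxb1 at 8.40 in HOXB4 2. The cluster median was 4.91, 5.11 and 4.65 in control arrays 1 to 3 and 4.68, 4.57 and 4.60 in HOXB4 1 to 3. By that median HOXB4 2 was the lowest array.

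Hoxb6, a gene of trunk and lateral mesoderm, stood at 5.64, 5.71 and 4.84 in control arrays 1 to 3 and at 4.50, 4.63 and 4.42 in HOXB4 1 to 3. All HOXB4 arrays were below all controls, and control 3 was 0.21 above the nearest of them. The means were 5.40 ± 0.48 and 4.52 ± 0.11 (SD, n = 3 each), a 1.84-fold lower value (difference -0.88, SE 0.23, adjusted p = 0.604 in limma). Leaving out 1 array gave differences from -1.16 (without control 3) to -0.72 (without control 2).

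Hoxb2, which patterns the hindbrain, stood at 6.67, 6.65 and 6.19 in control arrays and at 5.90, 5.82 and 5.68 in HOXB4 cells. The groups did not overlap, and control 3 was again the lowest control. The means were 6.50 ± 0.27 and 5.80 ± 0.11 (SD, n = 3 each), a 1.63-fold lower value (difference -0.70, SE 0.15, adjusted p = 0.604 in limma). It had the smallest unadjusted p of the Hox features, 0.00256, and its difference lay between -0.86 and -0.62 when any 1 array was left out.

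Hoxb1, the most anterior gene of the cluster, varied most between HOXB4 arrays. It stood at 7.15, 7.10 and 8.05 in control arrays 1 to 3 and at 5.92, 8.40 and 5.59 in HOXB4 1 to 3. HOXB4 2 lay above every control, and HOXB4 1 and 3 lay below every control. The means were 7.43 ± 0.53 and 6.64 ± 1.53 (SD, n = 3 each), with a difference of -0.80 (SE 0.72, adjusted p = 0.761 in limma). Without HOXB4 2 the difference was -1.68 (SE 0.31, adjusted p = 0.129), and it was -0.28 without HOXB4 3, -0.44 without HOXB4 1 and -0.49 without control 3.

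HOXB4 2 was also the highest array, and HOXB4 1 and 3 the lowest, for 3 genes outside the cluster that were looked up after their values were known. Mixl1, a homeobox gene of the primitive streak, stood at 14.67, 14.21 and 14.91 in control arrays and at 11.86, 15.62 and 11.95 in HOXB4 cells. Cyp26a1, which breaks down retinoic acid, stood at 9.88, 9.84 and 11.16 in control arrays and at 8.38, 11.39 and 8.56 in HOXB4 cells. Evx1, a streak gene beside the Hoxa cluster, stood at 7.72, 8.20 and 8.30 in control arrays and at 6.40, 8.56 and 6.50 in HOXB4 cells. Without HOXB4 2 their differences were -2.69 for Mixl1, -1.82 for Cyp26a1 and -1.62 for Evx1, against -1.45, -0.85 and -0.92 with it. Their part in the Hoxb1 values was not tested.

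Hoxb4 itself showed no separation. Its feature stood at 4.63, 4.96 and 4.40 in control arrays 1 to 3 and at 4.93, 4.24 and 4.74 in HOXB4 1 to 3, so the groups overlapped over most of their range. The difference was -0.03 (SE 0.22, adjusted p = 0.976 in limma), and it turned to 0.01 with cyclic loess scaling, 0.12 without control 2 and 0.17 without HOXB4 2. The feature also lists Mir10a, and whether its probes read the introduced sequence is not given. Whether it reads the endogenous gene alone therefore cannot be told, and it cannot be used to check the labels.

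Between Hoxb2 and Hoxb4 lies Hoxb3, a gene of the hindbrain and neck; it stood at 5.28, 5.22 and 5.17 in control arrays and at 4.95, 5.05 and 4.97 in HOXB4 cells, without overlap (difference -0.23, SE 0.08). Hoxb8, a trunk gene with a known part in myeloid progenitors, stood at 5.03, 5.35 and 4.95 against 4.83, 4.83 and 4.70, also without overlap (difference -0.32, SE 0.13). Hoxb5, Hoxb7, Hoxb9 and Hoxb13 had differences between -0.26 and -0.13 with overlapping groups. In RefSeq the Hoxb3 gene spans Hoxb4 and Mir10a; whether these features use strand and which exons they read is not given.

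**Figure D2:**
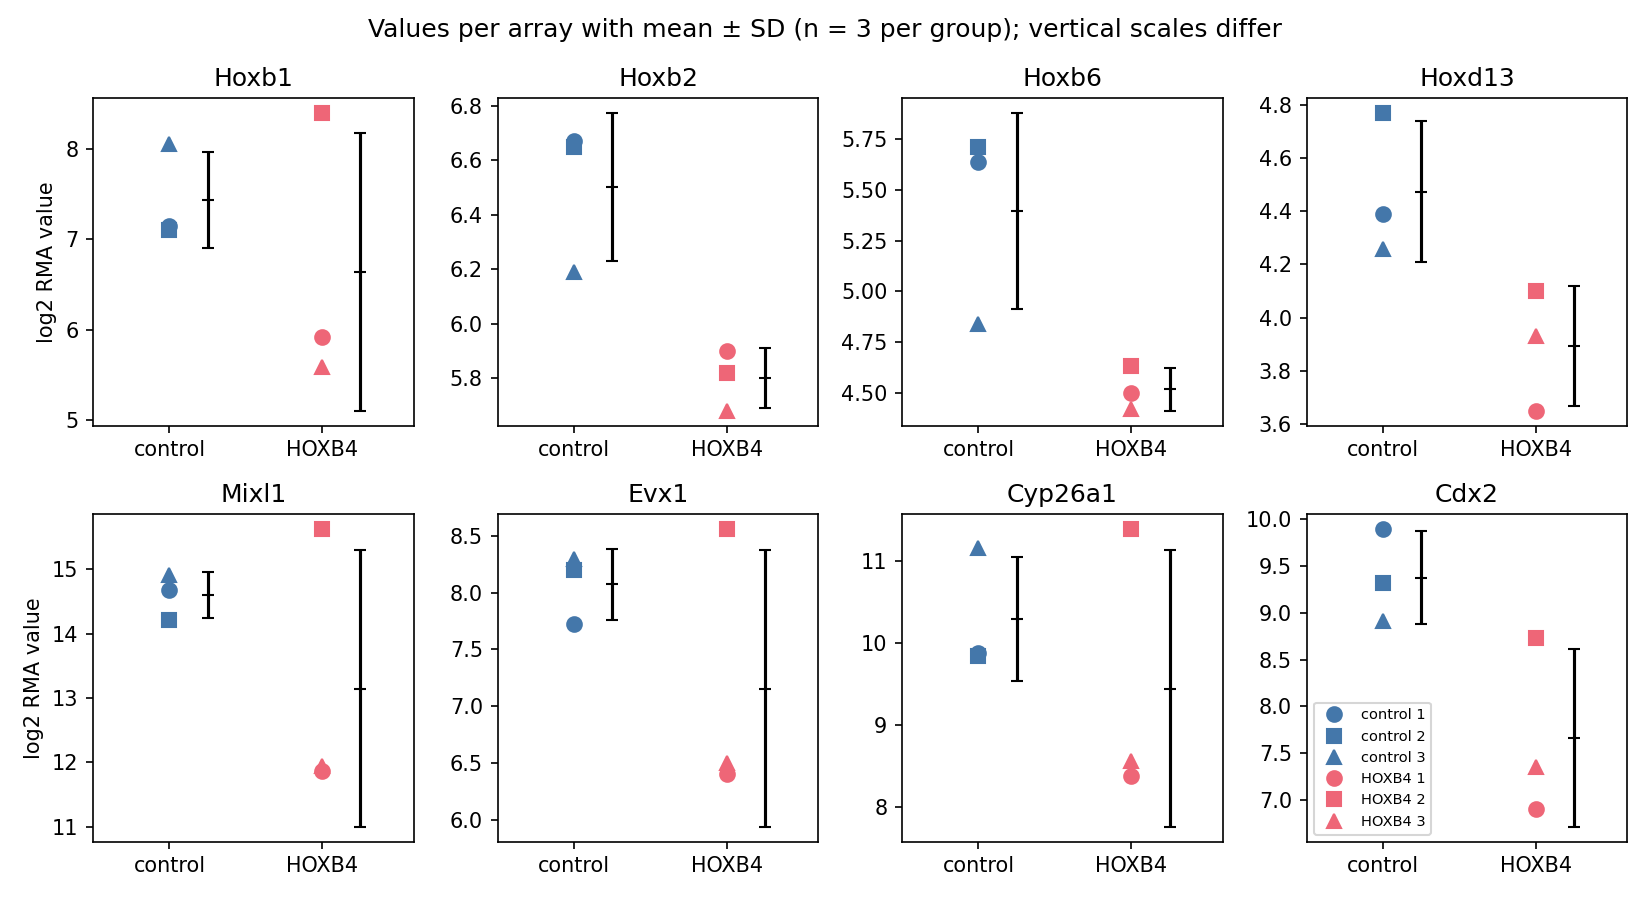
Log2 values of Hoxb1, Hoxb2, Hoxb6 and Hoxd13 and of Mixl1, Evx1, Cyp26a1 and Cdx2 in each array, with the mean and SD of each group (n = 3); the vertical scales differ between panels. Hoxb2, Hoxb6, Hoxd13 and Cdx2 have no overlap between groups, whereas in Hoxb1, Mixl1, Evx1 and Cyp26a1 HOXB4 2 lies above every control.

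The Hoxa cluster, whose genes of groups 7 to 10 are known in blood progenitors, had 10 features with a median difference of -0.16 (range -0.43 to -0.07), and 4 lay lower without overlap (10.2% of all features did). The cluster mean was 4.31, 4.34 and 4.10 in control arrays and 3.96, 4.08 and 4.07 in HOXB4 cells. The 3 Hoxa features furthest from 0 were Hoxa10, Hoxa13 and Hoxa7. When dim features were left out, Hoxa2, Hoxa7, Hoxa10 and Hoxa13 remained, and the Hoxa median was -0.35. The cut was a mean of 4.149 over all arrays, and Hoxa13 passed it only through its control values (HOXB4 mean 4.1).

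Hoxa10, which acts in the limb, uterus and blood progenitors, stood at 4.59, 4.96 and 4.23 in control arrays and at 4.21, 4.10 and 4.19 in HOXB4 cells. The groups were 0.02 apart, control 2 was the highest array, and the difference of -0.43 (SE 0.18, adjusted p = 0.604 in limma) was -0.24 without control 2. Hoxa13, a gene of the distal limb and hindgut, stood at 4.67, 4.56 and 4.17 in control arrays and at 4.03, 4.28 and 4.00 in HOXB4 cells, where HOXB4 2 lay above control 3 (difference -0.36, SE 0.16; -0.45 without HOXB4 2). Hoxa7, a trunk gene, stood at 5.0, 5.30 and 4.88 in control arrays and at 4.65, 4.76 and 4.76 in HOXB4 cells, without overlap (difference -0.34, SE 0.13; -0.22 without control 2). Hoxa4 stood at 3.78, 3.68 and 3.56 in control arrays and at 3.31, 3.56 and 3.72 in HOXB4 cells, with overlap (difference -0.14, SE 0.13; -0.03 without HOXB4 1 and -0.24 without HOXB4 3).

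Among the other Hoxa features, Hoxa11 and Hoxa3 lay lower without overlap, with differences of -0.17 (SE 0.08) and -0.16 (SE 0.09). Hoxa9, a gene known in haematopoietic stem cells and leukaemia whose feature also lists Mir196b, stood at 4.22, 4.26 and 4.09 in control arrays and at 4.05, 4.10 and 4.08 in HOXB4 cells. Its difference was -0.11 (SE 0.09), and only HOXB4 2 lay above the lowest control. Hoxa2, Hoxa5 and Hoxa6 had differences of -0.13, -0.19 and -0.07, with overlap.

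The Hoxc cluster had 9 features with a median difference of -0.18 (range -0.47 to -0.02; -0.27 without control 3 and -0.12 without control 1), and 3 lay lower without overlap (10.2% of all features did). The cluster mean was 4.03, 3.99 and 3.82 in control arrays and 3.74, 3.82 and 3.67 in HOXB4 cells, so that HOXB4 2 and control 3 were about level. Hoxc8, a gene of the thoracic spine and its motor neurons, stood at 4.53, 4.40 and 4.33 in control arrays and at 3.94, 4.21 and 3.69 in HOXB4 cells. The groups did not overlap, and HOXB4 2 was the closest to the controls. The mean was 1.39-fold lower (difference -0.47, SE 0.15, adjusted p = 0.604 in limma), and the difference was -0.60 without HOXB4 2. The values are dim, with HOXB4 arrays at 3.69 to 4.21 against background medians of 3.06 to 3.15.

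Hoxc10, a gene of lumbar levels, stood at 3.72, 3.48 and 3.21 in control arrays and at 3.10, 3.34 and 2.83 in HOXB4 cells. These are near the background medians, the groups overlapped, and the difference was -0.38 (SE 0.18; -0.51 without HOXB4 2 and -0.25 without HOXB4 3). Hoxc4, known to be expressed in lymphoid cells, stood at 4.45, 4.31 and 4.27 in control arrays and at 4.14, 4.06 and 4.05 in HOXB4 cells, without overlap (difference -0.26, SE 0.09). Hoxc5 lay below the background median in every array, at 2.44 to 3.06, so its difference of -0.24 (SE 0.14) is one between background levels. Hoxc6, Hoxc9, Hoxc11, Hoxc12 and Hoxc13 had differences between -0.18 and -0.02. Of these only Hoxc12 had no overlap, with a gap of 0.08.

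The Hoxd cluster had 8 features with a median difference of -0.21 (range -0.58 to -0.003), and 2 lay lower without overlap, Hoxd13 and Hoxd9 (10.2% of all features did). The median rested on single arrays: it was -0.09 without control 2 and -0.10 without HOXB4 2. Its cluster mean was 4.60, 4.81 and 4.41 in control arrays and 4.35, 4.32 and 4.44 in HOXB4 cells; here HOXB4 3 lay above control 3, and the groups overlapped. Hoxd13, a gene of the digits and genital bud, stood at 4.39, 4.77 and 4.26 in control arrays and at 3.65, 4.10 and 3.93 in HOXB4 cells. All HOXB4 values were below all controls with a gap of 0.16, and the means were 1.49-fold apart (difference -0.58, SE 0.17, adjusted p = 0.604 in limma). The values are dim, with HOXB4 arrays at 3.65 to 4.10 against background medians of 3.06 to 3.15. Leaving out 1 array gave differences between -0.69 and -0.43.

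Hoxd9, a gene of the limb and lumbar spine, stood at 4.62, 5.32 and 4.37 in control arrays and at 4.08, 4.17 and 4.33 in HOXB4 cells. Its difference was also -0.58 (SE 0.24), but the groups were only 0.04 apart and the difference was -0.30 without control 2. Hoxd1, the most anterior gene of its cluster, stood at 6.09, 6.58 and 5.76 in control arrays and at 6.10, 5.54 and 6.12 in HOXB4 cells. HOXB4 1 and 3 matched control 1, and HOXB4 2 lay below every control here but above every control for Hoxb1. The difference was -0.23 (SE 0.25), and it was -0.03 without HOXB4 2, -0.01 without control 2 and -0.42 without control 3. The shared Hoxd3 and Hoxd4 feature stood at 4.42, 4.47 and 4.28 in control arrays and at 4.37, 4.23 and 4.39 in HOXB4 cells, with overlap (difference -0.06, SE 0.10; -0.01 without HOXB4 2 and -0.11 without control 3). Hoxd8, Hoxd10, Hoxd11 and Hoxd12 had differences between -0.22 and -0.003, all with overlap.

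**Figure D3:**
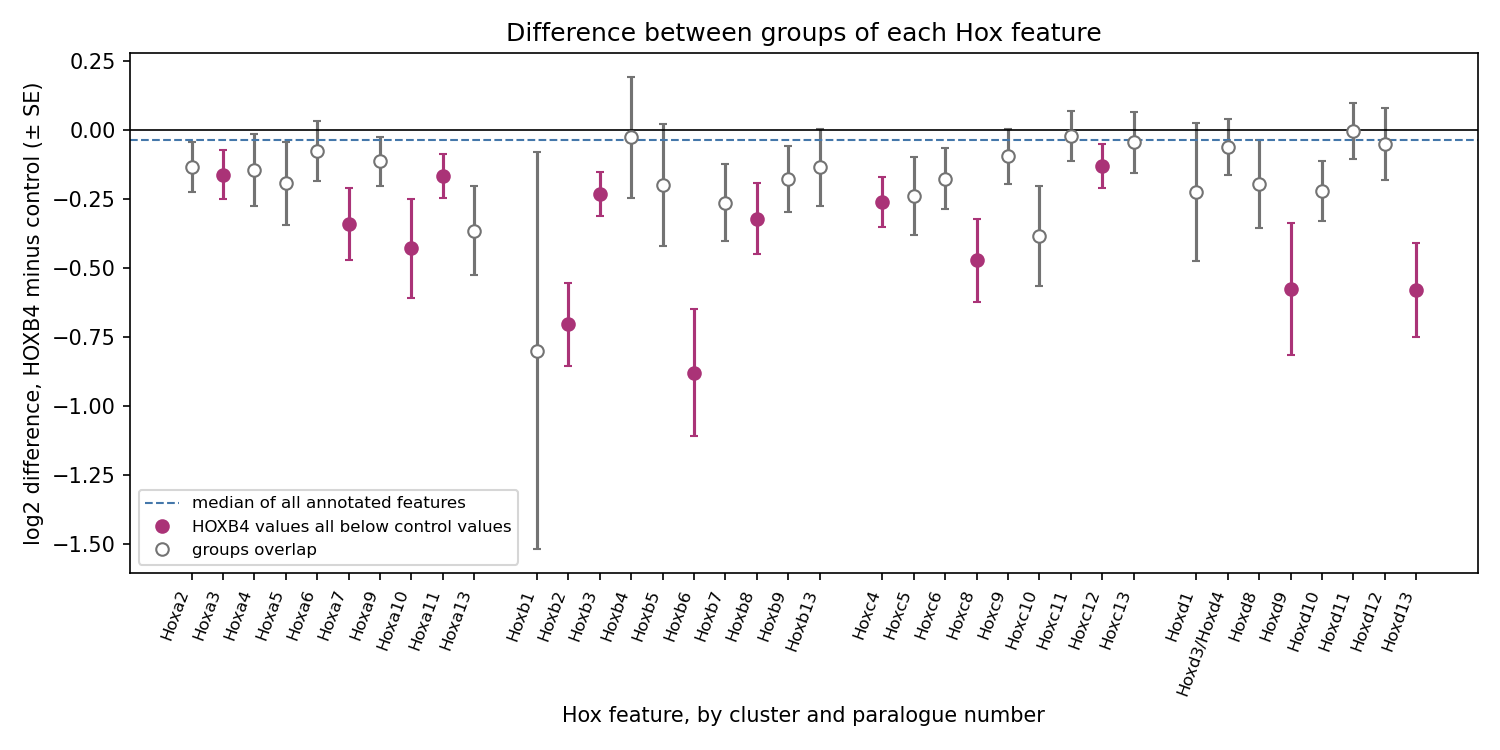
Log2 difference, HOXB4 minus control (vertical axis), of each Hox feature with its moderated standard error, by cluster and paralogue group; filled points are the 13 features whose HOXB4 values all lie below the control values, open points overlap, and the dashed line is the median of all annotated features (-0.04). Hoxb6 (-0.88), Hoxb1 (-0.80) and Hoxb2 (-0.70) are furthest from 0, and the error bar of Hoxb1 (SE 0.72) is the widest.

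By position along the clusters, the 6 anterior features (groups 1 to 3) had a median difference of -0.23, the 14 central ones (groups 4 to 8) -0.22 and the 16 posterior ones (groups 9 to 13) -0.15; the feature shared by Hoxd3 and Hoxd4 was left out of this count. Features without overlap numbered 3 anterior (50.0%), 5 central (35.7%) and 5 posterior (31.2%), against 10.2% of all features that list a gene. Median levels over the 6 arrays fell in the same order, at 5.57 (anterior), 4.55 (central) and 4.09 (posterior). Over the 37 features the Spearman correlation of level with difference was -0.47, so brighter features tended to have more negative differences. The order of the differences did not repeat within every cluster. In the Hoxb cluster the anterior median was -0.70 and the posterior median -0.16, whereas in the Hoxa cluster these were -0.15 and -0.27. In the Hoxc cluster the central median was -0.25 and the posterior median -0.09. By paralogue group the medians lay between -0.51 for group 1 and -0.02 for group 11, each over 2 to 4 features. Members of one group differed: in group 6, Hoxb6 was at -0.88, Hoxc6 at -0.18 and Hoxa6 at -0.07. No test of a difference between clusters or positions was made, and the part of level in these differences was not tested.

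**Figure D4:**
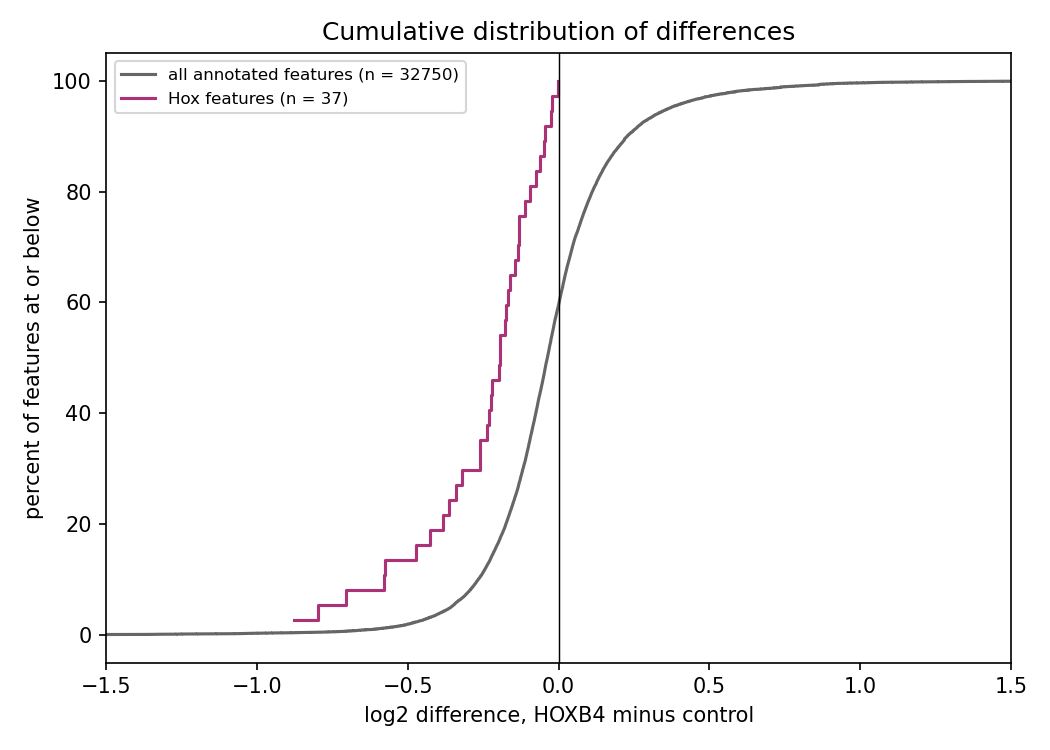
Cumulative percent of features (vertical axis) at or below each log2 difference, HOXB4 minus control (horizontal axis, which leaves out the most extreme features), for all 32750 annotated features in grey and the 37 Hox features in purple. The Hox curve lies to the left, with a median of -0.20 against -0.04, and reaches 100% at the Hoxd11 value of -0.003, where the grey curve is near 59.6%.

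Among the microRNA genes of the clusters that have features of their own, the differences ran from -0.40 to 0.01. Mir196a-1, in the Hoxb cluster, stood at 4.72, 4.55 and 4.63 in control arrays and at 4.07, 4.31 and 4.32 in HOXB4 cells, lower without overlap (difference -0.40, SE 0.11, adjusted p = 0.604 in limma). Mir196a-2, which gives the same mature sequence from the Hoxc cluster, stood at 5.99, 5.44 and 5.51 against 4.95, 5.40 and 5.61, with overlap (difference -0.33, SE 0.21). Mir10b, which shares the miR-10a seed, differed by 0.01 (SE 0.25), and Mir615 by -0.24 (SE 0.17). Both lay near the background medians of 3.06 to 3.15, Mir10b at 2.76 to 3.57 and Mir615 at 3.26 to 3.9. Their differences therefore say little about these genes. The labelling kit reads whole transcripts, so these features may hold precursor or host RNA.

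Of 18 measured neighbours and non-coding RNAs of the clusters, of 20 listed, 14 had differences below 0 (median -0.13), against 59.6% of all features, and 4 lay lower without overlap, against 10.2% of all: Hoxaas2, Smug1, Hoxd3os1 and Evx2. Hoxaas2, an antisense RNA of the Hoxa cluster, stood at 3.71, 3.66 and 3.71 in control arrays and at 3.34, 3.49 and 3.51 in HOXB4 cells (difference -0.25, SE 0.09). Hoxb3os, an opposite-strand RNA beside Hoxb2 and Hoxb3, stood at 6.17, 6.17 and 6.60 against 5.70, 6.21 and 5.48, with HOXB4 2 among the controls (difference -0.51, SE 0.21; -0.72 without HOXB4 2). Smug1, a DNA repair gene beside the Hoxc cluster, differed by -0.26 (SE 0.10). Skap2, beside the Hoxa cluster, differed by 0.78 (SE 0.41) with overlap. Mtx2, beside the Hoxd cluster, differed by 0.05 (SE 0.10).

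Of the 19 known regulators of Hox genes, 17 had differences below 0 (14 with cyclic loess, where Ezh2, Suz12 and Rnf2 turned), with a median of -0.19 (-0.29 without HOXB4 2). Among them 7 lay lower without overlap, against 10.2% of all features, and 6 were lower at an unadjusted p below 0.05, against 5.88% of all. Cdx2, which switches on central and posterior Hox genes, stood at 9.89, 9.32 and 8.91 in control arrays and at 6.91, 8.73 and 7.35 in HOXB4 cells. The groups were 0.18 apart, with HOXB4 2 nearest the controls, and the mean was 3.27-fold lower (difference -1.71, SE 0.48, adjusted p = 0.604 in limma; -2.25 without HOXB4 2). Aldh1a2, which makes retinoic acid, stood at 6.04, 5.71 and 5.90 in control arrays and at 4.83, 5.45 and 4.95 in HOXB4 cells, without overlap (difference -0.80, SE 0.18). Cbx2, a Polycomb protein, stood at 8.32, 8.46 and 8.33 against 8.08, 8.20 and 8.0, without overlap (difference -0.28, SE 0.10).

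Cdx4, another Cdx gene, stood at 5.52, 5.87 and 5.62 in control arrays and at 5.10, 5.49 and 4.62 in HOXB4 cells, also without overlap (difference -0.60, SE 0.22). The retinoic acid receptor gene Rarg, the Polycomb gene Eed and the menin gene Men1 completed the 7, with differences of -0.40, -0.28 and -0.28. The other Polycomb genes had overlapping groups, with Bmi1 at -0.16 (SE 0.15), Rnf2 at -0.10 (SE 0.12), Suz12 at -0.07 (SE 0.09) and Ezh2 at -0.06 (SE 0.11), and the trithorax gene Kmt2a was at 0.21 (SE 0.19). None of the regulators passed the adjusted test.

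Hox proteins bind DNA with Pbx, Meis and Pknox partners. Of 8 measured cofactor genes, of 9 listed, 4 had differences below 0, and the median was -0.03 (0.03 with cyclic loess). Among the 8, 0 lay apart without overlap. Over all features 10.2% lay lower and 3.36% higher in this way, so 0 of 8 is near that share. The smallest unadjusted p-values belonged to Pbx4 (difference 0.23, SE 0.12), Meis3 (-0.19, SE 0.12) and Meis1 (0.27, SE 0.18). Homeobox genes outside the clusters, 12 in all, had a median of -0.01, with 6 below 0 (0.03, with 5 below 0, with cyclic loess). Lhx1, a gene of early mesoderm, was higher without overlap (difference 0.92, SE 0.33), while Msx2 (-2.05, SE 0.82; -3.07 without HOXB4 2) and Msx1 (-0.57, SE 0.24) had overlapping groups, with HOXB4 2 of Msx2 at 11.57 among controls of 11.24 to 11.73.

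Markers of other cell types also differed between the arrays, and their part in the Hox values was not tested. The 8 cardiac and lateral mesoderm genes had a median difference of -1.14 (-1.59 without HOXB4 2), with 7 below 0 and 3 lower without overlap, against 10.2% of all features (Tbx20 at -1.89, Hand2 at -1.21 and Foxf1 at -2.16). Their mean ranged from 8.27 to 8.74 in controls and from 6.77 to 8.12 in HOXB4 cells. The 7 genes of the Flk1 sort and endothelium were above 0 in all cases (median 0.48, and 1.28 without HOXB4 2), but their means of 8.90 to 10.4 in controls and 8.64 to 11.29 in HOXB4 cells overlapped. The 6 pluripotent cell genes were above 0 (median 0.61). Without HOXB4 2 the median was 0.52 and Nanog turned. Zfp42 (0.69) and Utf1 (0.73) lay higher without overlap, against 3.36% of all features. The means of the 6 genes overlapped, at 6.2 to 6.56 in controls and 6.29, 7.05 and 7.34 in HOXB4 1 to 3.

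The 9 blood genes had a median of -0.25 with 6 below 0 (-0.49 without HOXB4 2; means 7.01 to 7.82 in controls, 6.92 to 7.74 in HOXB4 cells), and the 9 genes of the Pdgfra lineage and paraxial mesoderm a median of -0.13 with 6 below 0 (-0.28 without HOXB4 2; 5.61 to 5.68, and 5.30 to 5.87). Endoderm genes (3 of 6 below 0, median -0.02, or 0.02 with cyclic loess; Ttr, at -0.11, lower without overlap) and neurectoderm genes (2 of 5 below 0, median 0.02, or -0.06 without HOXB4 2) lay near 0. HOXB4 2 was highest of its group for the blood, Pdgfra lineage and cardiac means and lowest for the endothelial mean. It was also highest of its group for the mean of the Hox features, at 4.30 against 4.20 and 4.21. By cluster HOXB4 2 was highest of its group for the Hoxa, Hoxb and Hoxc means and lowest for the Hoxd mean.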

How the data were processed

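Per the labels' protocols, the WT PLUS kit of Affymetrix was used on 100 ng of RNA. The deposited log2 values, 1 column for each of 6 arrays, were made by the authors with Affymetrix Expression Console and RMA, per the submitters' processing notes; the sources used here do not give versions or settings. RMA equalises arrays, so a shift of most genes would be partly removed. Groups came from the titles.

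The table held 65956 features without the controls: 31220 list 1 gene, 1530 several and 33206 are unnamed. The difference, HOXB4 minus control, came from the moderated two-sided test of limma (version 3.58.1, under R 4.3.3, with no block) over the 32750 features with a gene, and p-values were Benjamini-Hochberg adjusted over all of them. SE is the moderated standard error. The steps were tested on simulated data. The shared replicate numbers were not used to pair the arrays, and whether they mark shared experiments was not settled.

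The members and lists were chosen with earlier results of these data known, so their counts are descriptions. Values in every array are given for Hoxb4 and its paralogues, the 3 members of each cluster furthest from 0 and members with a mean at or above the median annotated feature (Hoxb1, Hoxb2 and Hoxd1); from each list, 3 or fewer genes with the smallest p are named. Hoxa9, Hoxb3, Hoxb8, Hoxc5, the microRNA features, further list genes and the genes set beside Hoxb1 were named after their values were seen. Homeodomain sequences were not used here. Plots were drawn with matplotlib 3.10.9, and motifs were searched in Python 3.11.15 with numpy 2.4.6 and pandas 2.3.3.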

Additional observations from a re-analysis of the deposited data

How the results depend on the processing

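Alternatives were the replicate block, 1 feature per gene, all features, a filter on dim features (mean of at least 4.149), centred arrays, cyclic loess, a trended and robust prior, array weights, an unmoderated linear model and each array left out in turn. No Hox feature was called under any of them. Leaving out 1 array gave 0 to 44 features called in the whole table; the 44 came without HOXB4 2. The Hox median difference lay between -0.26 and -0.14 throughout. With 1 array left out, the number of Hox features lower without overlap ran from 13 to 26 (12 with cyclic loess). Over all features, 13.1% to 21.3% met this rule with 1 array left out, and 6.32% with cyclic loess. The number of Hox features below 0 ran from 32 to 37 with 1 array left out. The number lower at an unadjusted p below 0.05 ran from 4 (without control 1 or HOXB4 3) to 15 (without control 3). In those smaller sets 870 to 2744 of all 32750 features were lower at that threshold. The medians ran from -0.40 to -0.19 for Hoxb, -0.27 to -0.12 for Hoxc and -0.28 to -0.09 for Hoxd. The filter on dim features kept 23 Hox features, all 23 below 0 with 10 lower without overlap, against 11.2% of all features it kept. The filter moved the Hoxa median to -0.35, with Hoxa2, Hoxa7, Hoxa10 and Hoxa13 left. The Hoxb4 difference turned to 0.01 with cyclic loess, to 0.12 without control 2 and to 0.17 without HOXB4 2, in a range from -0.17 to 0.17 without 1 array; the cause was not tested. Of 223 values under alternatives for the 15 features that the naming rule takes, 220 kept their direction and side of the threshold. The block, the choices of features, the trended prior and the unmoderated model leave each difference unchanged by design, so those values could not turn. With no Hox feature called in any setting, the side of the threshold never changed. Over all 37 Hox features the sign turned in 16 cases, in Hoxa6, Hoxb4, Hoxb13, Hoxc11, Hoxc13, Hoxd11 and Hoxd12, with Hoxd11 in 7 of them. Cyclic loess moved the median of all features from -0.04 to 0.01.

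Deviations from the group means of same-numbered arrays correlated at -0.396, -0.593 and -0.345 over the features, and no array correlated best with its own number. With 3 arrays in a group, 1 array that stands apart, such as HOXB4 2, can set these correlations. They therefore cannot decide whether same-numbered arrays shared an experiment. With the replicate number as a block, 5 Hox features were lower at an unadjusted p below 0.05 against 9 without it. Over all features 930 were lower with the block, against 1926 without it. With the block 0 features were called (smallest adjusted p 0.923 in limma). Low signal over background limits many Hox features: 19 to 27 of the 37 lay at least 1 above the background median in an array.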
